A study of Homo sapiens with 9 samples.

Results

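The genes described here encode the proteins of the mitochondrial ribosome, in a human leukaemia line that carries 1 of 3 forms of the transcription factor MYC. They were chosen by symbol, as every row of the count table named MRPL or MRPS plus a number, with a final letter A, B or C allowed for MRPS. Of 26485 symbols, 77 qualified, 48 of them MRPL and 29 MRPS. All 77 passed the filter on low counts and were among the 12845 genes tested. By the structure of the human particle, 50 belong to the large subunit and 26 to the small one. MRPS18A and MRPS30 carry a small-subunit name but sit in the large subunit, and the product of MRPS36 is a part of the 2-oxoglutarate dehydrogenase complex rather than of the ribosome.

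Mitochondria keep a small genome that encodes membrane subunits of the respiratory chain and its own ribosomal RNAs, and a dedicated ribosome inside the organelle translates those messages. All of its proteins are encoded in the nucleus, made in the cytosol and imported. Many descend from bacterial ribosomal proteins and others are found only in mitochondria. Acute myeloid leukaemia cells are known to depend on mitochondrial translation, and genes of mitochondrial biogenesis are among the known targets of MYC, which pairs with MAX and binds the E-box CACGTG. Factors known to bind promoters of nuclear genes for mitochondrial proteins include the ETS family member GABP, nuclear respiratory factor 1 and YY1.

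MV4;11 is an established acute myeloid leukaemia line with an MLL rearrangement. RNA sequencing covered 3 libraries each of untreated cells in RPMI medium with the MYC K148Q substitution, with the MYC K148R substitution, and of the parental line, which has a lysine at that position. Glutamine is often used as a stand-in for an acetylated lysine, and arginine for a lysine that cannot be acetylated. The titles mark the genotypes with the codes Q2, R14 and WT. No source used here gives the meaning of these codes, how the substitutions were made or whether each is 1 clone. A change of 1 residue leaves no trace in gene counts, so the genotype labels could not be checked against the data.

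Libraries held 13747087 to 18938391 counts. Their values were scaled to counts per 1000000 (CPM) with TMM factors of edgeR, and averages are given with the SD of 3 libraries. Nothing says that the libraries of a genotype came from separate cultures, so p-values measure the spread between these libraries, which may be technical. Replicate 3 of K148Q stood apart: its chi-square per degree of freedom against replicates 1 and 2 was 17.8 and 18.3, against 1.35 between replicates 1 and 2, 3.04 to 5.29 among K148R libraries and 1.55 to 1.63 among parental libraries. Counts in K148Q of the members, their subunits and the other gene lists are therefore given with and without it. The summed level of 9 myeloid leukaemia markers was 1796 to 1894 CPM in K148Q, 2909 to 2955 CPM in K148R and 1280 to 1287 CPM in parental libraries. LYZ alone gave 451 to 565 CPM of it in K148Q, 1628 to 1670 CPM in K148R and 158 to 164 CPM in parental libraries. Not all markers of the list moved this way. FLT3 had 656 to 708 CPM in K148Q, 300 to 304 CPM in K148R and 644 to 660 CPM in parental libraries, and MPO and MEIS1 were lower in every mutant library than in any parental one. The 4 T cell markers together stayed at or under 0.248 CPM and the 4 erythroid markers at or under 0.496 CPM in every library. Summed levels of 3 markers each reached at most 3.59 CPM for B cells and 5.82 CPM for fibroblasts, both in K148R, and 12.1 CPM for epithelium, in parental cells. The 3 endothelial markers summed to 214 to 221 CPM in K148Q, 179 to 187 CPM in K148R and 96.6 to 101 CPM in parental libraries, nearly all of it PECAM1, while CDH5 and VWF stayed at or under 0.743 CPM.

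Promoter windows of RefSeq on GRCh38.p14, 250 bases before to 50 bases after the annotated start, were found for 68 of the 77 genes and for 9414 of all genes tested. They were searched on both strands for the letters of 4 motifs, and matches of different motifs shared bases in 0 members. The E-box CACGTG was in 6 members, 8.82%, against 10.3% of all windows. The letters GCGCATG, part of the site of nuclear respiratory factor 1, were in 7 members, 10.3%, against 7.83%. The ETS letters CCGGAAG were in 28 members, 41.2%, against 20.2%, and the YY1 letters AAGATGG were in 23 members, 33.8%, against 8.13%. Members lower in K148R than in parental cells held the YY1 letters in 12 of 40 windows, the ETS letters in 17, the GCGCATG letters in 6 and the E-box in 3. Members higher in K148R held the YY1 letters in 2 of 7 windows, the ETS letters in 2, the GCGCATG letters in 0 and the E-box in 1. Those not called held the YY1 letters in 9 of 21 windows, the ETS letters in 9, the GCGCATG letters in 1 and the E-box in 2. Members lower in K148Q than in parental cells held them, in the same order, in 4, 9, 1 and 0 of 15 windows. Members higher in K148Q held them in 2, 3, 0 and 0 of 12, and those not called there in 17, 16, 6 and 6 of 41. The K148Q split was not repeated without K148Q replicate 3. A match of letters is a description and not a binding site.

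Of the 24 YY1 matches, 16 were centred after the annotated start and 20 read along the gene. The YY1 letters contain an ATG, and whether matches fall on a start codon of translation was not checked. Matches are shown for 10 members as examples, picked with the calls known. YY1 was chosen because the share of its letters was the one farthest from that of all windows. Capitals mark the motif. Each is 30 bases, 5′ to 3′, on the strand given.
MRPL42 (chr12:93467511-93467540, plus strand): aggattgaaacAAGATGGcgggttcgtggt
MRPL46 (chr15:88467362-88467391, minus strand): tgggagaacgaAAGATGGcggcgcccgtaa
MRPL11 (chr11:66438806-66438835, minus strand): acctctggcccAAGATGGtggcgcccagag
MRPL38 (chr17:75904860-75904889, minus strand): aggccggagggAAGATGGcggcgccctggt
MRPS30 (chr5:44808949-44808978, plus strand): aatcgcgggcaAAGATGGcggcggccaggt
MRPS10 (chr6:42217834-42217863, minus strand): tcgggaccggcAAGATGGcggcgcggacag
MRPS18A (chr6:43687764-43687793, minus strand): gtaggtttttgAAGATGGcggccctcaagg
MRPS18B (chr6:30617852-30617881, plus strand): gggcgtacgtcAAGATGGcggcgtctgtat
MRPL50 (chr9:101398577-101398606, minus strand): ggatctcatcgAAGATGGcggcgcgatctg
MRPL20 (chr1:1407260-1407289, minus strand): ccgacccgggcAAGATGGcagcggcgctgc

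Among these examples MRPL20 was higher in K148R than in parental cells, MRPL38 and MRPS18A did not pass the test, and the other 7 were lower. Of all 23 members with the letters, 2 were higher, 9 did not pass and 12 were lower.

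The 6 E-box matches, shown because the E-box is the known site of MYC, were centred 53 to 242 bases before the start. Capitals mark the E-box.
MRPL37 (chr1:54199985-54200014, plus strand): tgcgcttcacctCACGTGaggattttccag
MRPL22 (chr5:154940885-154940914, plus strand): ttttcggaagccCACGTGctttcggccttt
MRPS18C (chr4:83455867-83455896, plus strand): aatcataagcctCACGTGacctgccgcgta
MRPL36 (chr5:1799876-1799905, minus strand): acgtgggcacgcCACGTGaccccccccccc
MRPL45 (chr17:38297023-38297052, plus strand): cactcccgcgagCACGTGcgcgtcctcgct
MRPL49 (chr11:65121933-65121962, plus strand): cggctCACGTGgggaaggccaggcctccca

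Among these, MRPL37, MRPL22 and MRPS18C were lower in K148R than in parental cells, MRPL49 was higher, and MRPL36 and MRPL45 did not pass the test. The 250 bases before the start of 3 genes that frame the results are printed next. MRPL33 was lower in both mutants, MRPL42 had the largest fall in K148R, and MRPL55 had the largest rise there. Capitals mark the ETS letters next to the start of MRPL33. The other 2 stretches held none of the 4 motifs, and the YY1 letters of MRPL42 lie after its start.
MRPL33 (chr2:27771469-27771718, plus strand): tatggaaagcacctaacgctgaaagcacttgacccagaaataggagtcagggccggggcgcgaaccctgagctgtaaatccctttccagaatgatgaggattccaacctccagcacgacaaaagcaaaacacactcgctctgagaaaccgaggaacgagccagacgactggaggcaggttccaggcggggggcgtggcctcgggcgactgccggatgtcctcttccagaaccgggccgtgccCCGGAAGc
MRPL42 (chr12:93467264-93467513, plus strand): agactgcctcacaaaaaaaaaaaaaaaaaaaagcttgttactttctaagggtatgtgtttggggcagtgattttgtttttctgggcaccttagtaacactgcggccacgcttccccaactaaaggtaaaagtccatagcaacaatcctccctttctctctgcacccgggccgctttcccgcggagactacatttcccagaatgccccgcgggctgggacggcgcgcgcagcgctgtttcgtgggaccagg
MRPL55 (chr1:228109300-228109549, minus strand): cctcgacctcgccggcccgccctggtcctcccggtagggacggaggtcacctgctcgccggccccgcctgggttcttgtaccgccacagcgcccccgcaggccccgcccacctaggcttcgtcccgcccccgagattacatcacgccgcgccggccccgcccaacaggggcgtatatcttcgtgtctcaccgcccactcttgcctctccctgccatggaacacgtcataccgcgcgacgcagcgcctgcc

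In K148R cells the mitochondrial ribosomal protein genes were mostly lower than in parental cells. By edgeR's quasi-likelihood test with Benjamini-Hochberg adjustment over all genes tested, 46 of 77 fell, 7 rose and 24 did not pass at an adjusted p under 0.05. Among all genes tested 37.3% fell and 37.8% rose, 75.1% called in all, so the share of members called, 68.8%, lay below the background, and its split between directions differed. The median log2 fold change was -0.35 for members and 0.00 for all genes tested. Summed over the 77 genes, the level was 4370 ± 64.1 CPM in K148R and 5708 ± 33.3 CPM in parental cells (SD, n = 3 each), or 76.6% of the parental sum. In bulk RNA a change in the make-up of the cells and a change in RNA per cell cannot be told apart. Every K148R library lay below every parental library for 51 members, against 40.2% of all genes, and above for 8, against 40.4%. A fall of at least 2-fold was called for 6 members and a rise of that size for 0, against 14.8% and 14.4% of all genes tested. With a correction for transcript GC content and length, 43 fell and 16 rose, against 39.4% and 40.1% of all genes.

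**Figure D1:**
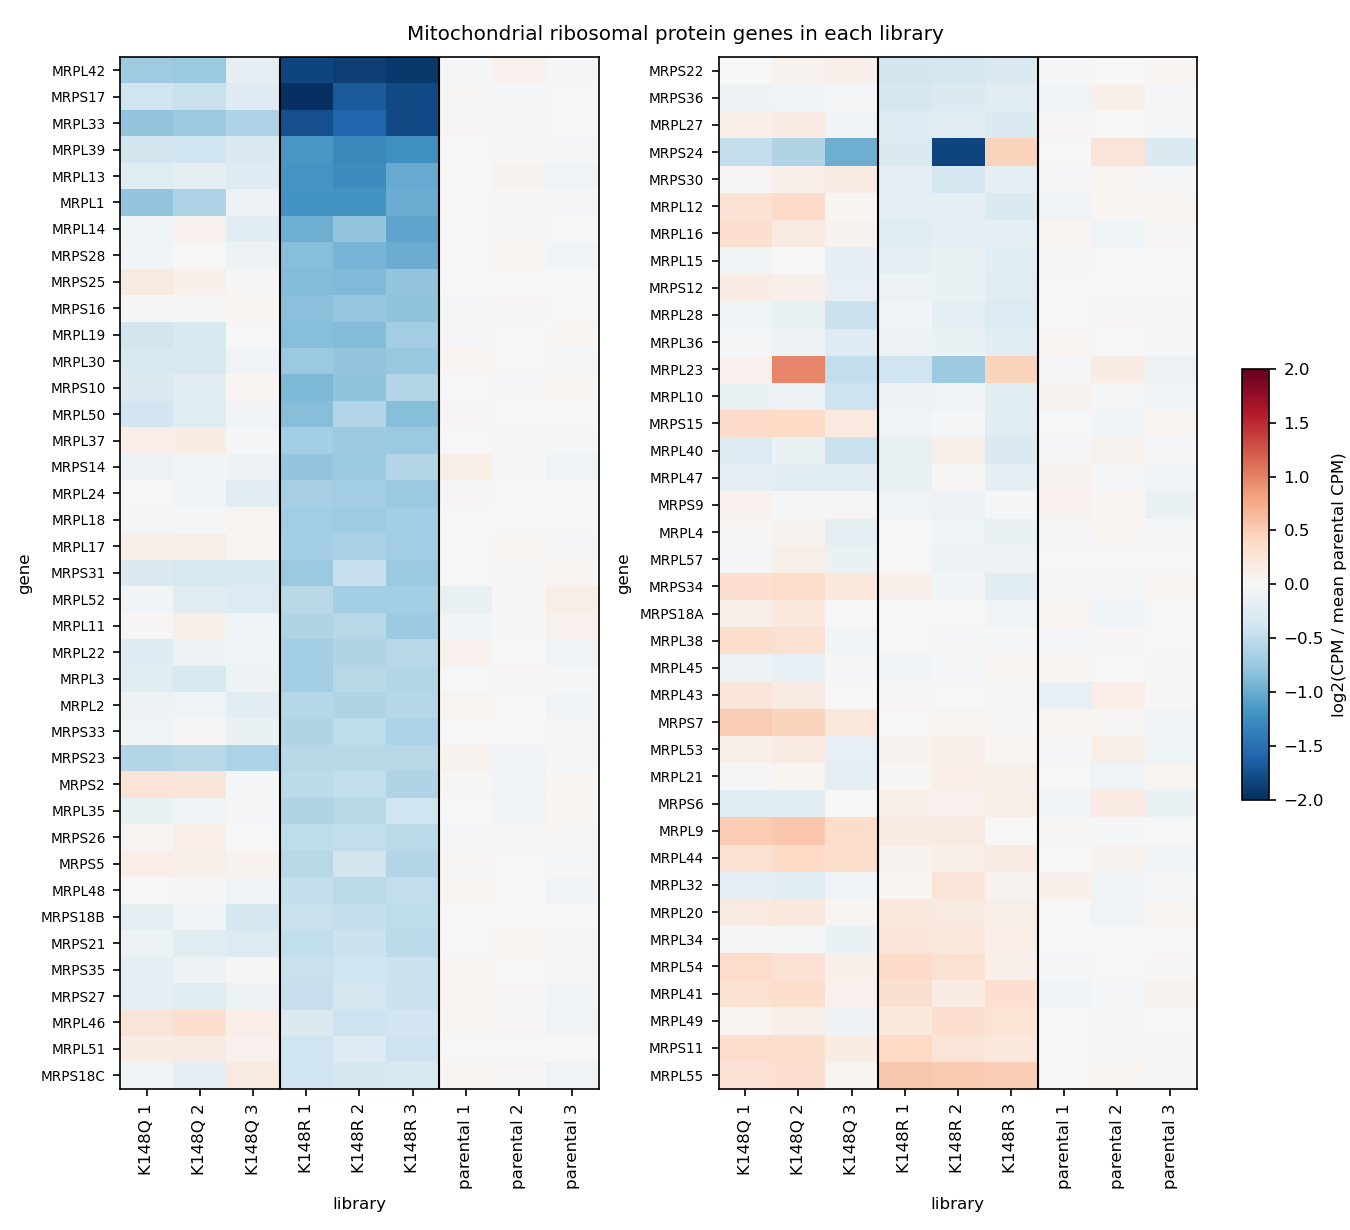
Heat map of log2(CPM / mean parental CPM) for the 77 genes (rows, in 2 blocks ordered by the K148R fold change) in the 9 libraries (columns, grouped by genotype); blue is lower and red is higher than the parental mean. The left block is blue in all 3 K148R libraries and much paler in K148Q, and MRPS24 and MRPL23 differ between libraries of the same genotype.

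The largest falls in K148R were in large-subunit genes and in MRPS17. MRPL42, which encodes a protein found only in mitochondrial ribosomes, had 22.9, 22.3 and 21.5 CPM in K148R, against 79.3, 86.8 and 79.4 CPM in parental libraries. The K148R libraries lay close together and far below the parental ones, 3.68-fold lower (log2 fold change -1.88 ± 0.13 (SE), adjusted p = 1.34e-08). MRPS17, the mitochondrial relative of bacterial ribosomal protein S17, had 5.77, 7.93 and 7.25 CPM in K148R, against 25.75, 24.95 and 25.2 CPM in parental libraries. It was 3.64-fold lower (-1.87 ± 0.11 (SE), adjusted p = 1.41e-09), and a GENCODE gene on its strand covers 25.5% of its exons. MRPL33, a relative of bacterial L33, had 67.7, 76 and 65.2 CPM in K148R, against 231, 223 and 230 CPM in parental libraries, 3.27-fold lower (-1.71 ± 0.067 (SE), adjusted p = 8.48e-12). No K148R library reached the lowest parental value in any of these genes.

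Next came MRPL39, a mitochondria-specific protein related to threonyl-tRNA synthetase, with 29.7, 27.2 and 28.4 CPM in K148R, against 67.1, 67.5 and 64.9 CPM in parental libraries (-1.22 ± 0.069 (SE), adjusted p = 5.08e-10). MRPL13, a relative of bacterial L13, had 49.5, 47.2 and 56.1 CPM in K148R, against 112, 118.5 and 107 CPM in parental libraries (-1.14 ± 0.072 (SE), adjusted p = 1.89e-09). MRPL1, whose bacterial counterpart forms the mobile L1 stalk, had 23.9, 23.9 and 27.4 CPM in K148R, against 55.05, 55.7 and 53.4 CPM in parental libraries (-1.12 ± 0.14 (SE), adjusted p = 5.88e-06). These 3 genes and the 3 before them are the 6 members at least 2-fold lower. Just short of that size, MRPL14 averaged 24.4 ± 2.35 CPM in K148R and 46.8 ± 0.664 CPM in parental cells (-0.94 ± 0.092 (SE), adjusted p = 2.82e-07). MRPS28 averaged 29.5 ± 1.43 CPM in K148R and 55.9 ± 1.94 CPM in parental cells (-0.92 ± 0.071 (SE), adjusted p = 1.84e-08). A GENCODE gene on the strand of MRPS28 covers 42% of its exons.

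**Figure D2:**
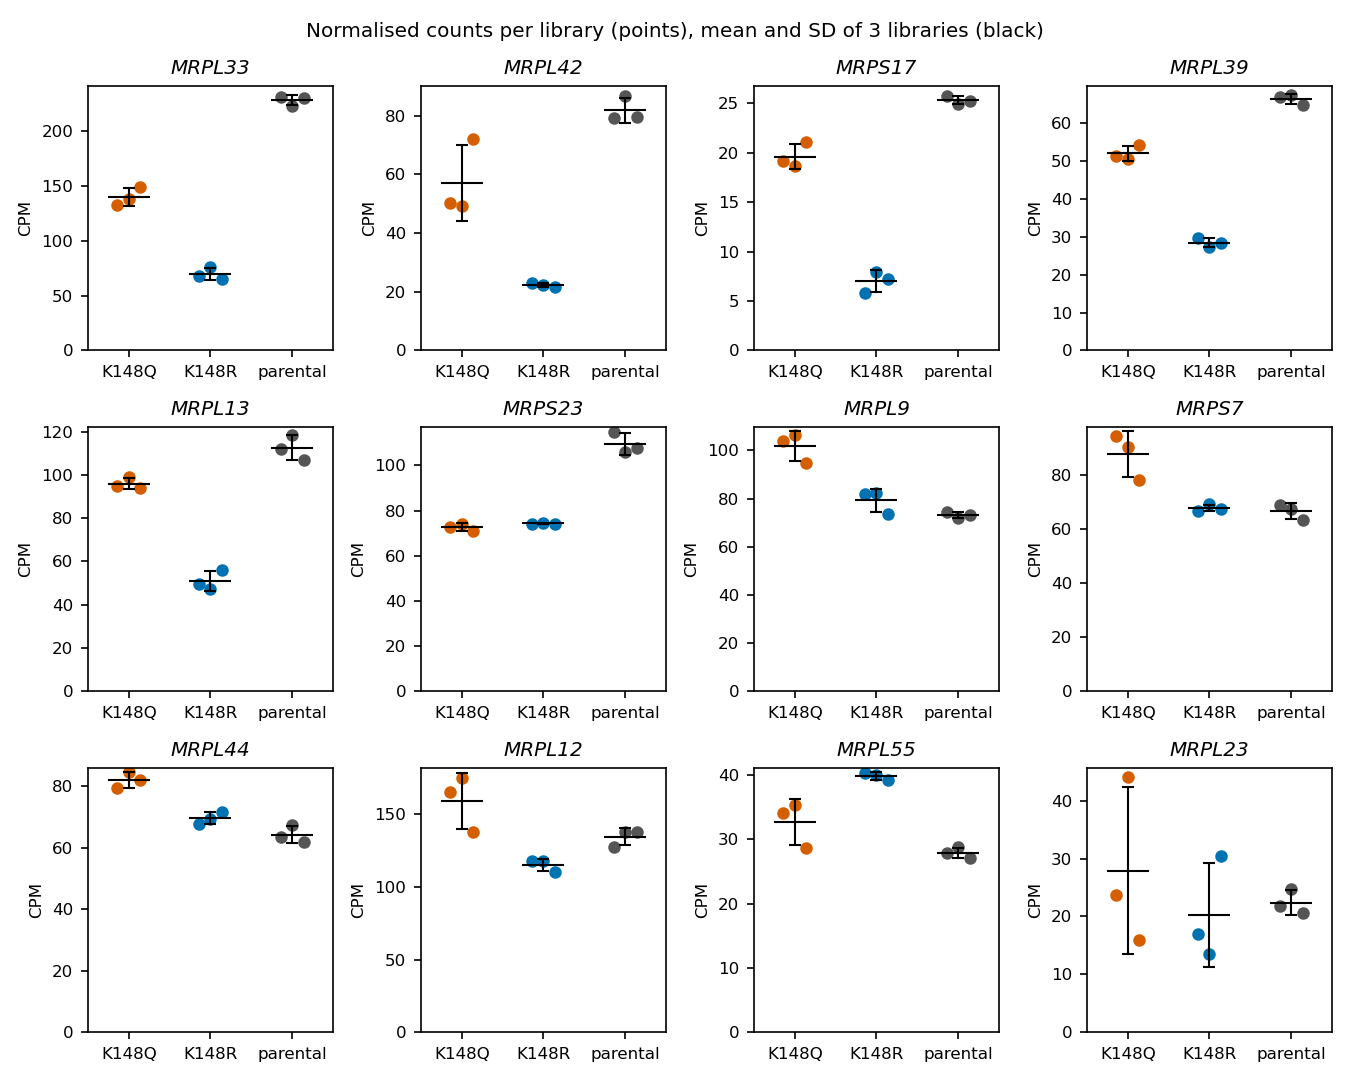
CPM of 12 genes in each library (points; the axes differ between panels and start at 0), with the mean and SD of 3 libraries per genotype in black. In the top row K148R lies lowest, K148Q in between and parental cells highest, MRPS23 is alike in both mutants, MRPL55 is highest in K148R, and the 3 K148Q libraries of MRPL23 spread widely.

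The large subunit holds the peptidyl transferase centre, where amino acids are joined. Of its 50 genes 27 fell in K148R and 6 rose, with a median log2 fold change of -0.21, and their summed level was 2984 ± 42.1 CPM in K148R and 3865 ± 19.9 CPM in parental cells (SD, n = 3 each). MRPL3, a relative of bacterial L3, averaged 149 ± 6.97 CPM in K148R and 227 ± 3.71 CPM in parental cells (-0.61 ± 0.06 (SE), adjusted p = 2.92e-07). MRPL37, which is mitochondria-specific and has an E-box in its window, averaged 87.3 ± 1.88 CPM in K148R and 143 ± 1.85 CPM in parental cells (-0.71 ± 0.06 (SE), adjusted p = 4.75e-08). The 31 large-subunit genes with a bacterial counterpart counted 18 lower and 3 higher, and the 19 mitochondria-specific ones 9 lower and 3 higher. Among all genes tested 37.3% were lower and 37.8% higher.

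The stalk of the large subunit recruits translation factors. MRPL12, the relative of bacterial L7/L12, had 118, 118 and 110 CPM in K148R, against 128, 138 and 138 CPM in parental libraries (-0.23 ± 0.078 (SE), adjusted p = 0.017). Without parental replicate 2, parental replicate 3 or K148R replicate 3, that adjusted p was 0.0502, 0.0557 and 0.0692. A GENCODE gene on the same strand covers 68.2% of the exons of MRPL12. MRPL11, at the base of the stalk, fell (-0.62 ± 0.074 (SE), adjusted p = 2.13e-06). MRPL10, which anchors MRPL12, averaged 42.6 ± 2 CPM in K148R and 46.8 ± 2.01 CPM in parental cells and did not pass (adjusted p = 0.165), although it passed without K148Q replicate 3 (adjusted p = 0.0293). MRPL53, a mitochondria-specific protein of the same region, averaged 36.8 ± 0.945 CPM in K148R and 35.1 ± 2.55 CPM in parental cells and did not pass (adjusted p = 0.492).

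The small subunit binds the message and holds the decoding centre. Of its 26 genes 18 fell in K148R and 1 rose, with a median log2 fold change of -0.48, and their summed level was 1356 ± 23.4 CPM in K148R and 1807 ± 16.0 CPM in parental cells (SD, n = 3 each). With the GC and length correction the medians were -0.23 for the large and -0.26 for the small subunit. Summed levels in K148R were 77.2% of parental for the large and 75.1% for the small subunit. Against K148Q the medians were -0.38 and -0.37. The difference between the subunits was not tested. Of the 17 small-subunit genes with a bacterial counterpart 10 fell and 1 rose, against 37.3% and 37.8% of all genes tested. Of the 9 mitochondria-specific small-subunit genes 8 fell. MRPS34, the remaining one, averaged 109 ± 11.4 CPM in K148R and 113 ± 2.83 CPM in parental cells (adjusted p = 0.568). MRPS25 had 36.9, 36.4 and 39 CPM in K148R, against 67.35, 67.05 and 66.8 CPM in parental libraries (-0.84 ± 0.066 (SE), adjusted p = 2.33e-08). MRPS16, a relative of bacterial S16, had 76.2, 79.4 and 78.3 CPM in K148R, against 133, 138 and 137 CPM in parental libraries (-0.80 ± 0.054 (SE), adjusted p = 3.95e-09). In both genes the K148R libraries agreed closely and none overlapped the parental ones. MRPS12, the relative of the bacterial decoding-centre protein S12, had 97.95, 96.4 and 89.1 CPM in K148R, against 105, 107 and 105 CPM in parental libraries. These groups did not overlap, but the difference did not pass the test (-0.16 ± 0.077 (SE), adjusted p = 0.0662), and SARS2 on the opposite strand covers 21.5% of its exons. MRPS36, outside the ribosome, averaged 30.1 ± 1.41 CPM in K148R and 36.5 ± 2.41 CPM in parental cells (-0.28 ± 0.078 (SE), adjusted p = 0.00484). With the GC and length correction its direction turned, to 0.21 on the log2 scale.

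**Figure D3:**
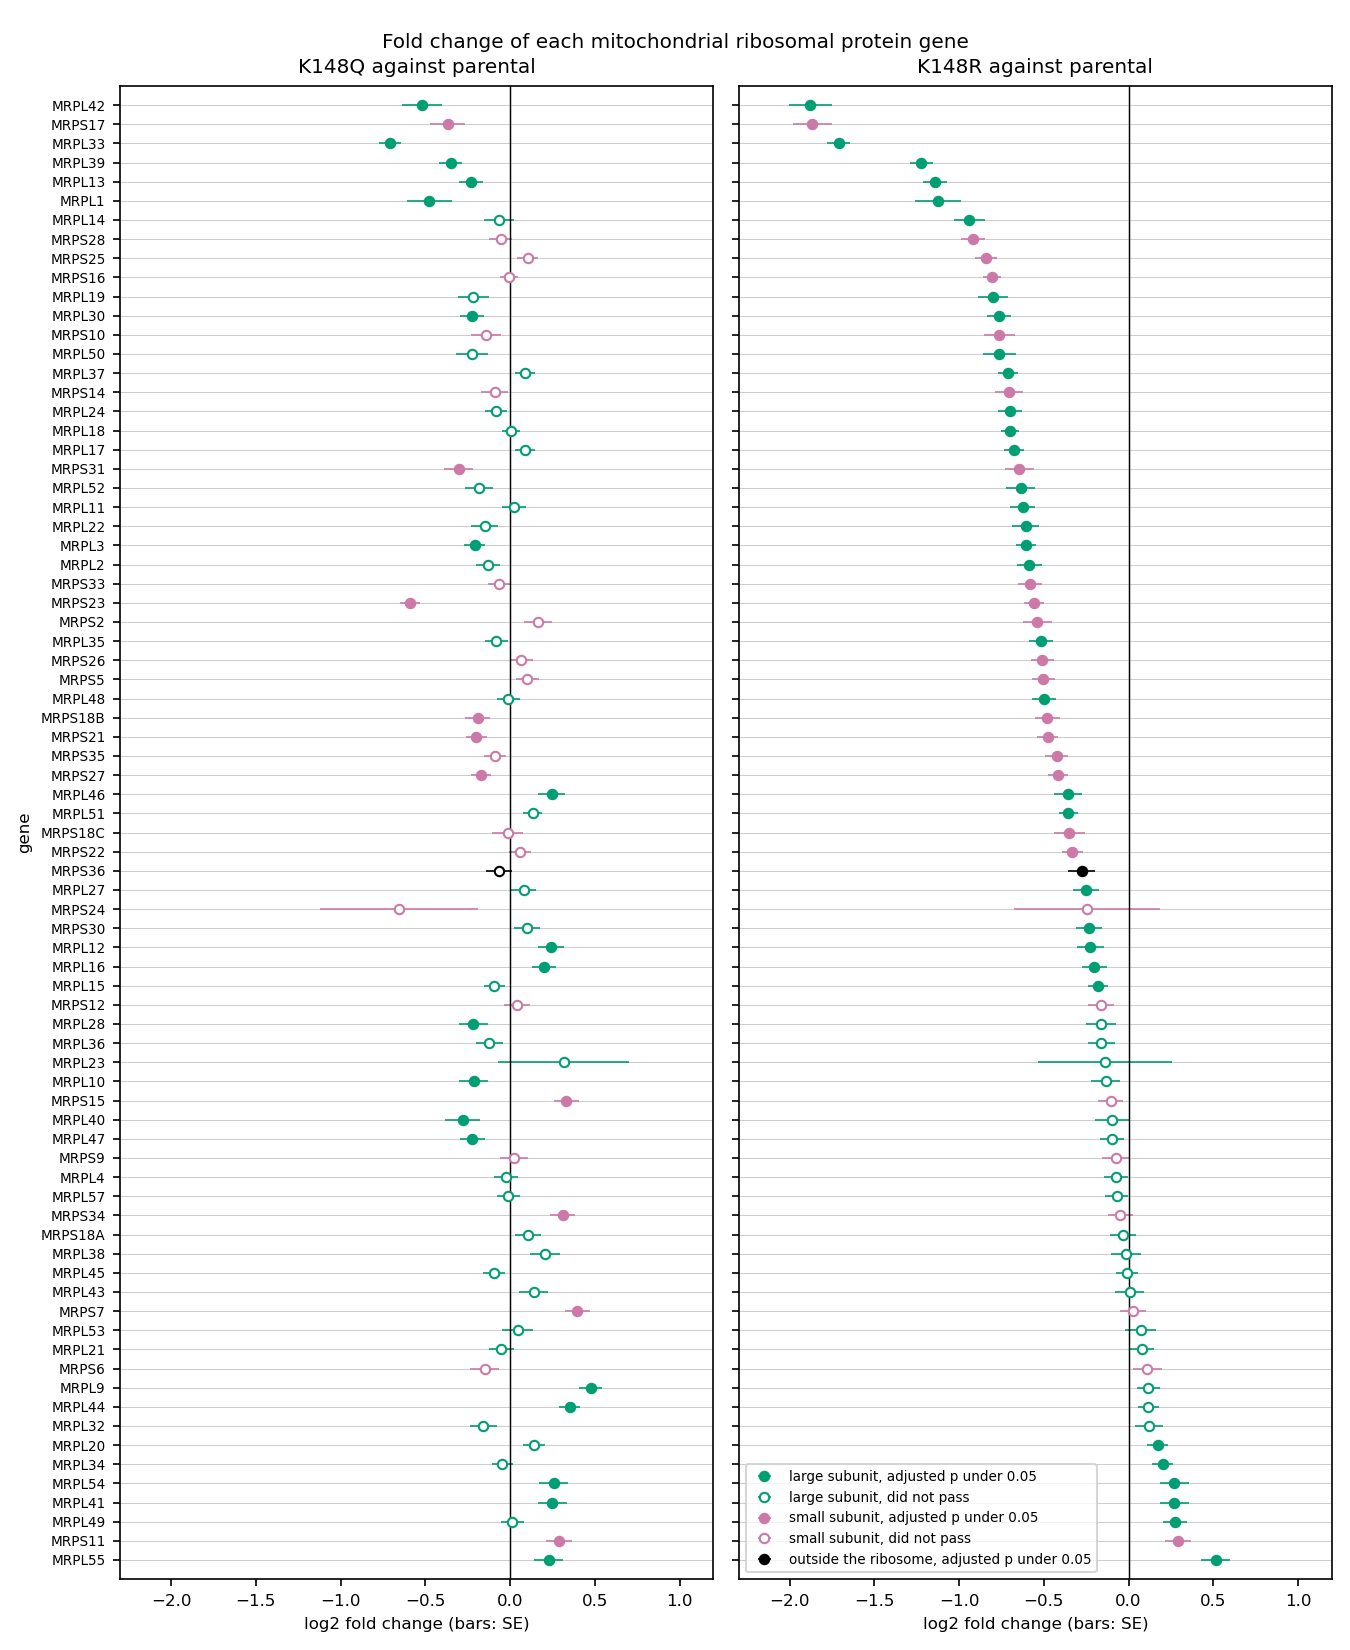
Log2 fold change of each of the 77 genes against parental cells, with bars of 1 SE, for K148Q (left) and K148R (right), in the same order in both panels; filled points passed an adjusted p under 0.05, and colour marks the subunit. In K148R the points run from -1.88 to 0.52 with 46 filled points left of 0, while in K148Q they run from -0.71 to 0.48.

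In contrast, 7 members rose in K148R, none of them by 2-fold. MRPL55 had 40.3, 39.9 and 39.2 CPM in K148R, against 27.9, 28.7 and 27.05 CPM in parental libraries, 1.43-fold higher with no overlap (0.52 ± 0.086 (SE), adjusted p = 6.79e-05). MRPS11, a relative of bacterial S11 in the platform of the small subunit, averaged 46.7 ± 2.98 CPM in K148R and 38.2 ± 0.647 CPM in parental cells (0.29 ± 0.078 (SE), adjusted p = 0.00359). MRPL49 averaged 71.3 ± 3.29 CPM in K148R and 59 ± 0.717 CPM in parental cells (0.27 ± 0.068 (SE), adjusted p = 0.00216). The other 4 were MRPL41, MRPL54, MRPL34 and MRPL20, with log2 fold changes of 0.27, 0.27, 0.20 and 0.17. MRPL20 did not pass without any 1 of parental replicates 1 and 2 and K148R replicates 1 and 2 (adjusted p = 0.0725 to 0.146), MRPL41 without parental replicate 1 (adjusted p = 0.0577) or MRPL54 without K148R replicate 1 (adjusted p = 0.0552). All 7 lay in K148R above every parental library.

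The members nearest to 0 in K148R were MRPL43, MRPL45, MRPL38 and MRPS7. MRPL45, which links the ribosome to the inner membrane, averaged 73.6 ± 2.36 CPM in K148R and 74 ± 1.57 CPM in parental cells, a log2 difference of -0.01 ± 0.062 (SE), which became 0.15 and passed with the GC and length correction (adjusted p = 0.00392). MRPS7, a relative of the bacterial head protein S7, averaged 67.7 ± 1.24 CPM in K148R and 66.5 ± 3 CPM in parental cells, a log2 difference of 0.03 ± 0.075 (SE). MRPL43 and MRPL38 differed by 0.01 and -0.02 on the log2 scale.

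In K148Q cells the same genes were split between directions. Of the 77 members 17 fell, 12 rose and 48 did not pass, so 37.7% were called, against 53.3% of all genes tested, 26.3% lower and 27% higher. The median log2 fold change was -0.05 for members and -0.01 for all genes tested, and the summed level was 5557 ± 141 CPM in K148Q and 5708 ± 33.3 CPM in parental cells (SD, n = 3 each). No member reached a 2-fold change, against 6.68% of all genes lower and 4.71% higher by that measure. These counts moved with single libraries. Without K148Q replicate 3 they were 20 lower and 23 higher, against 31.9% and 32.4% of all genes. Higher calls numbered 6 without K148Q replicate 1 and 6 without replicate 2, against 23% and 23.3% of all genes. Lower calls numbered 11 and 10 without parental replicates 1 and 2, against 22.1% and 22%. With upper quartile scaling 20 fell and 9 rose, against 29.7% and 23.7%. With the GC and length correction 15 fell and 21 rose, against 30% and 29.8%. The median then turned to 0.036, against 0 for all genes. Of the large subunit 11 fell and 8 rose (12 and 16 without K148Q replicate 3), and of the small subunit 6 fell and 4 rose (8 and 7 without it).

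MRPL33 had the largest called fall in K148Q, with 132.5, 138 and 148.5 CPM, against 231, 223 and 230 CPM in parental libraries, 1.63-fold lower (-0.71 ± 0.065 (SE), adjusted p = 5.14e-07). MRPS23, a mitochondria-specific small-subunit gene, had 72.9, 74.3 and 70.8 CPM in K148Q, against 115, 106 and 108 CPM in parental libraries (-0.59 ± 0.058 (SE), adjusted p = 1.07e-06). In K148R it had 74.2, 74.7 and 74.2 CPM, also lower than in parental cells (-0.56 ± 0.058 (SE), adjusted p = 5.4e-07). The 6 mutant libraries of MRPS23 spanned less than the 3 parental ones, and K148R and K148Q did not differ beyond their error (0.03 ± 0.059 (SE), adjusted p = 0.622). MRPL42 had 50.1, 49.1 and 71.9 CPM in K148Q, against 79.3, 86.8 and 79.4 CPM in parental libraries (-0.52 ± 0.12 (SE), adjusted p = 0.00257), with replicate 3 closest to the parental values. MRPL1 had 31.7, 35.8 and 50.3 CPM in K148Q, against 55.05, 55.7 and 53.4 CPM in parental libraries (-0.48 ± 0.13 (SE), adjusted p = 0.00895), again with replicate 3 closest. The other large falls were MRPS17, MRPL39, MRPS31 and MRPL40, with log2 fold changes of -0.37, -0.35, -0.30 and -0.28. The call of MRPL40 was lost without any 1 of the 3 parental libraries, K148Q replicate 1 or K148Q replicate 3 (adjusted p = 0.0501 to 0.11).

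MRPL9, a relative of bacterial L9, had the largest rise in K148Q, with 104, 106 and 94.8 CPM, against 74.3, 72 and 73.2 CPM in parental libraries, 1.39-fold higher (0.48 ± 0.067 (SE), adjusted p = 3.64e-05). OAZ3 on the opposite strand covers 18.7% of its exons. MRPS7 had 94.3, 90.2 and 78.1 CPM in K148Q, against 69, 67.3 and 63.15 CPM in parental libraries (0.40 ± 0.074 (SE), adjusted p = 0.000433). MRPL44, which has a fold of the RNase III kind, had 79.4, 84.8 and 82 CPM in K148Q, against 63.7, 67.3 and 61.9 CPM in parental libraries (0.35 ± 0.062 (SE), adjusted p = 0.000276). In all 3 genes every K148Q library lay above every parental one. MRPS15, MRPS34 and MRPS11 rose by 0.33, 0.31 and 0.29 on the log2 scale. MRPL54 and MRPL41 rose by 0.26 and 0.25. The call of MRPL54 was lost without any 1 of parental replicate 1 and K148Q replicates 1 and 2 (adjusted p = 0.0503 to 0.0876). That of MRPL41 was lost without any 1 of parental replicates 1 and 2 and K148Q replicates 1 and 2 (adjusted p = 0.0803 to 0.103), and its log2 fold change was -0.012 with the GC and length correction. Nearest to 0 were MRPL18, MRPS16, MRPL48 and MRPL57, with 0.01, -0.01, -0.01 and -0.01 on that scale.

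**Figure D4:**
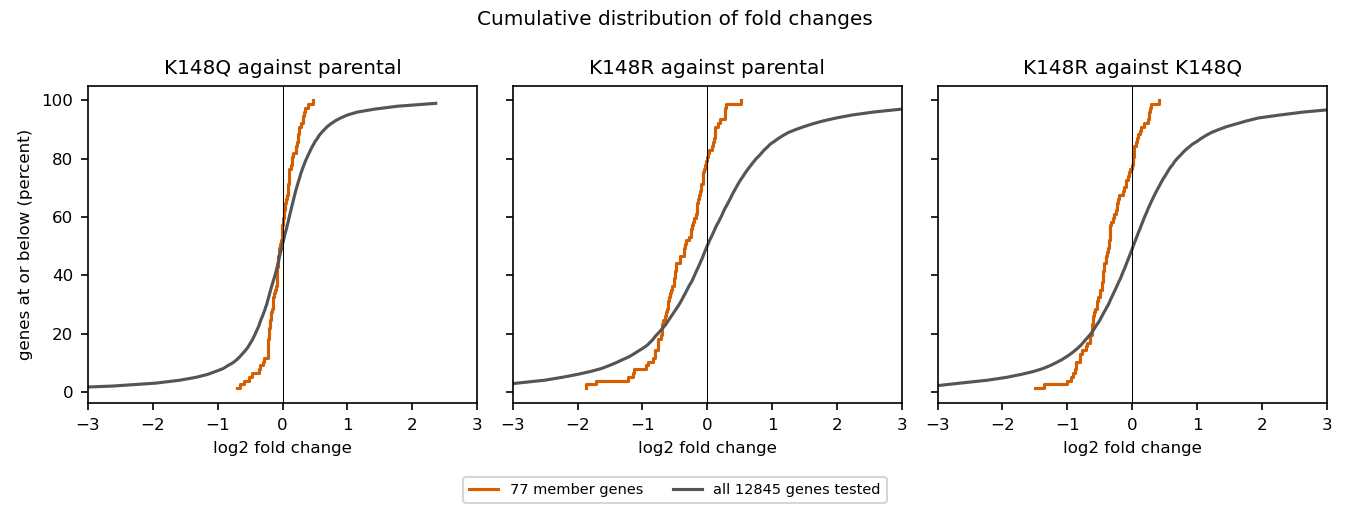
Cumulative share of genes (percent) at or below each log2 fold change, for the 77 members (orange) and for all 12845 genes tested (grey), in the 3 comparisons. The orange curve lies left of the grey one at its median in both panels with K148R (medians of -0.35 and -0.36 for members) and crosses it near 0 in K148Q against parental cells (median -0.05), and it is steeper in all 3.

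Set directly against K148Q, K148R had 51 members lower, 5 higher and 21 not called, 72.7% called against 71% of all genes tested, of which 34.5% were lower and 36.6% higher. The median log2 fold change was -0.36 for members and 0.02 for all genes tested. Without K148Q replicate 3 the counts were 56 lower and 5 higher, against 36.4% and 38% of all genes, with a member median of -0.42. Of the small subunit 21 of 26 fell and 1 rose, and of the large subunit 29 of 50 fell and 4 rose. MRPS17 had 5.77, 7.93 and 7.25 CPM in K148R, against 19.2, 18.6 and 21.1 CPM in K148Q (-1.50 ± 0.12 (SE), adjusted p = 2.52e-08). MRPL42 was 2.57-fold lower in K148R than in K148Q (adjusted p = 4.89e-07) and MRPL33 2.01-fold lower (adjusted p = 4.49e-09). MRPS25, MRPL13, MRPL14, MRPL39 and MRPS28 fell by 0.86 to 0.95 on the log2 scale.

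MRPL55 had 40.3, 39.9 and 39.2 CPM in K148R, against 34, 35.3 and 28.6 CPM in K148Q, and rose in K148R against K148Q as well (0.29 ± 0.085 (SE), adjusted p = 0.00711). MRPL32, a relative of bacterial L32, averaged 52.4 ± 4.21 CPM in K148R and 43.1 ± 2.55 CPM in K148Q (0.28 ± 0.081 (SE), adjusted p = 0.00682). MRPL49, MRPS6 and MRPL34 rose by 0.26, 0.26 and 0.25. The call of MRPS6 was lost without K148Q replicate 1 or 2 (adjusted p = 0.0622 and 0.0546). On the strand of MRPS6, SLC5A3 covers 17.8% of its exons and another GENCODE gene 29.7%. MRPS11, MRPL54, MRPL41 and MRPL53 were nearest to 0 among members that did not pass. MRPS11 averaged 46.7 ± 2.98 CPM in K148R and 46.6 ± 3.57 CPM in K148Q, and MRPL54 70.8 ± 6.8 CPM in K148R and 70.3 ± 6.58 CPM in K148Q. With the GC and length correction MRPL54 was lower in K148R, by a log2 fold change of -0.14 (adjusted p = 0.0197).

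MRPL16, MRPL46 and MRPL12 of the 77 were called higher in K148Q and lower in K148R, and 0 were called the other way round. Against parental cells 53.3% of all genes tested were called in K148Q and 75.1% in K148R. How many of all genes were called in opposite directions was not counted. Both comparisons with parental cells share the parental libraries. MRPL46, a mitochondria-specific large-subunit gene, had 37.35, 39.3 and 34.2 CPM in K148Q and 25.6, 23.4 and 24 CPM in K148R, against 32.1, 31.75 and 29.7 CPM in parental libraries. A GENCODE gene on its strand covers 45.3% of its exons. The K148Q libraries of MRPL46 all lay above the parental ones and the K148R libraries all below. On chr15 this gene (chr15:88459476-88467419, minus strand) stands head to head with MRPS11 (chr15:88467453-88480773, plus strand), and 33 bases lie between them. They were the 1 pair of members less than 10000 bases apart. In K148Q both were higher than in parental cells, by 0.25 and 0.29 on the log2 scale, and in K148R MRPL46 was lower (-0.36) and MRPS11 higher (0.29). The genome positions are those of GENCODE v29 on GRCh38.

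MRPS18A, MRPS18B and MRPS18C descend from the same bacterial protein, S18, and sit at different places in the particle. MRPS18A averaged 43.3 ± 3.2 CPM in K148Q, 39.2 ± 1.22 CPM in K148R and 40.1 ± 1.52 CPM in parental cells, and passed in neither mutant against parental cells (adjusted p = 0.253 and 0.69). MRPS18B averaged 65.1 ± 6.5 CPM in K148Q, 53.3 ± 1.19 CPM in K148R and 74.3 ± 0.681 CPM in parental cells and fell in both mutants (-0.19 in K148Q and -0.48 in K148R). Its call in K148Q was lost without any 1 of 7 libraries (adjusted p = 0.0527 to 0.103). MRPS18C averaged 40.6 ± 5.4 CPM in K148Q, 32.2 ± 0.966 CPM in K148R and 41 ± 1.54 CPM in parental cells and fell in K148R against parental cells (-0.35 ± 0.091 (SE), adjusted p = 0.00284) and against K148Q (adjusted p = 0.00421). With the GC and length correction the difference of MRPS18C from parental cells turned to 0.20 in K148R. Genes on the opposite strand cover 78.9% of the exons of MRPS18C and 56.9% of those of MRPS18A, and no source used here states which strand was counted. MRPS30, the other large-subunit protein with a small-subunit name, averaged 40.7 ± 1.92 CPM in K148Q, 32.3 ± 2.06 CPM in K148R and 38.1 ± 1.18 CPM in parental cells. It fell in K148R (-0.24 ± 0.077 (SE), adjusted p = 0.0122), a call lost without K148R replicate 2 (adjusted p = 0.055), and with the GC and length correction the log2 fold change turned to 0.31.

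Although the proteins join in 1 particle, levels per kilobase of transcript differed widely among the genes. In parental cells the highest were MRPL33, MRPL51, MRPL3, MRPL18 and MRPL12, with 494, 244, 144, 137 and 131 CPM per kb. The lowest were MRPS24, MRPL50, MRPL22, MRPS17 and MRPS11, with 1.01, 11.3, 12.9, 13.7 and 17.3. MRPL33 held 303 CPM per kb in K148Q and 151 in K148R. In K148R the highest level was that of MRPL51, at 191, and NCAPD2 on the opposite strand covers 29.9% of its exons. The median over the 77 genes was 53.4 CPM per kb in K148Q, 44.9 in K148R and 55.8 in parental cells. MRPS24 was all but uncounted, with 0.521, 0.479 and 0.372 CPM in K148Q, 0.599, 0.203 and 0.991 CPM in K148R and 0.7235, 0.868 and 0.596 CPM in parental libraries, and the readthrough gene URGCP-MRPS24 shares 77% of its exons.

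Replicates agreed to a median coefficient of variation of 6.85% in K148Q, 4.34% in K148R and 2.99% in parental cells over the 77 genes. MRPL23 was the widest in K148Q, at 51.8%, with 23.7, 44 and 16 CPM. It had 16.9, 13.5 and 30.35 CPM in K148R and 21.8, 24.7 and 20.55 CPM in parental libraries. The 3 groups overlapped, and MRPL23 passed in none of the 3 comparisons (adjusted p = 0.32 to 0.762).

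Fold changes of the members moved with the GC content of their transcripts. Over the 77 genes Spearman's rho between GC content and log2 fold change was 0.48 for K148Q against parental, 0.46 for K148R against parental and 0.29 for K148R against K148Q. Over 12547 genes with a GC value it was 0.20, 0.24 and 0.15. The points share libraries and depth, so these values are a description. Members were split by GC content into groups of 26, 25 and 26. In the group with the lowest GC content, 35% to 44.6%, 22 of 26 fell in K148R against parental and 0 rose, against 50.3% lower and 23.1% higher among all genes in that range. The middle group counted 18 of 25 lower and 1 higher, against 36.2% and 40% of all genes. The group with the highest GC content, 53.7% to 72%, counted 6 of 26 lower and 6 higher, against 27.4% and 49.2%. Member medians were -0.61, -0.48 and -0.09 from the lowest to the highest group, and those of all genes -0.27, 0.03 and 0.24. MRPL42, MRPL1 and MRPL13 had GC contents of 37.5%, 37.9% and 38.5%, and MRPL55 one of 60.8%. Within K148Q, the deviation of replicate 3 from the mean of replicates 1 and 2 also followed GC content, with a rho of -0.82 over members and -0.73 over all genes. It exceeded 0.3 in size on the log2 scale for 10 members, 13.0%, against 33.4% of all genes. The part of GC content in the fold changes was not tested beyond the correction given above.

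**Figure D5:**
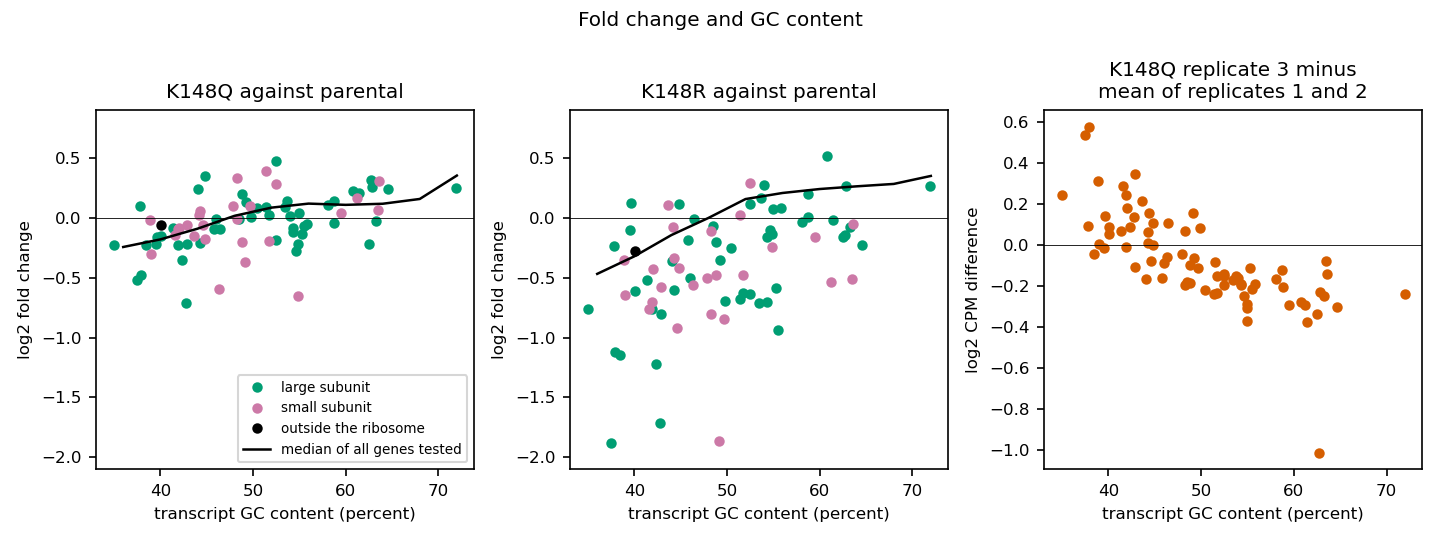
Log2 fold change against transcript GC content (percent) for the 77 genes in K148Q (left) and K148R (centre) against parental cells, coloured by subunit, with the median of all genes tested in bins of GC content as a black line; the right panel plots the log2 CPM of K148Q replicate 3 minus the mean of replicates 1 and 2 for the same genes. Most members in the centre panel lie below the black line, and the right panel slopes down (rho -0.82).

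Among all genes tested, against which the gene lists that follow are set, 37.3% were lower and 37.8% higher in K148R, and 26.3% lower and 27% higher in K148Q. Without K148Q replicate 3 the K148Q shares were 31.9% lower and 32.4% higher. Of 6 genes for proteins of the same ribosome that carry other symbols, 5 fell in K148R and 0 rose, with 1 rise without K148Q replicate 3. DAP3, a GTP-binding protein of the small subunit, averaged 136 ± 7.7 CPM in K148Q, 131 ± 5.83 CPM in K148R and 170 ± 0.913 CPM in parental cells, and was lower in both mutants (adjusted p = 0.000275 in K148Q and adjusted p = 3.13e-05 in K148R). PTCD3, a pentatricopeptide protein of the small subunit, averaged 84.4 ± 3.5 CPM in K148R and 157 ± 2.94 CPM in parental cells (-0.90 ± 0.058 (SE), adjusted p = 2.25e-09). CHCHD1 averaged 34.4 ± 0.274 CPM in K148R and 52.1 ± 3.59 CPM in parental cells (adjusted p = 2.61e-06). AURKAIP1 averaged 108 ± 8.07 CPM in K148R and 96.6 ± 2.52 CPM in parental cells and did not pass (adjusted p = 0.0988). In K148Q 2 of the 6 fell, DAP3 and PTCD3, and 2 rose, AURKAIP1 and GADD45GIP1, and without K148Q replicate 3 the counts were 2 and 2.

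Assembly of the particle needs GTPases, helicases and enzymes that modify its RNA. Of 26 such genes 17 fell (65.4%) and 5 rose (19.2%) in K148R. In K148Q 5 fell and 10 rose, so 57.7% were called, near the 53.3% of all genes, and 7 fell and 12 rose without K148Q replicate 3. METTL15, a methyltransferase of the small ribosomal RNA, averaged 5.63 ± 1.02 CPM in K148R and 17.3 ± 0.116 CPM in parental cells (-1.63 ± 0.14 (SE), adjusted p = 4.58e-08). MTERF3 averaged 17.4 ± 2.12 CPM in K148R and 52.3 ± 1.48 CPM in parental cells (-1.59 ± 0.093 (SE), adjusted p = 7.7e-10). MPV17L2 and MTG1, a GTPase of the large subunit, went the other way, with log2 fold changes in K148R of 1.00 and 0.83. In K148Q the same pair rose by 0.51 and 0.54. NOA1 and TRUB2 were nearest to 0 in K148R, at -0.02 and -0.10.

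Translation factors of the organelle counted 13 of 18 lower (72.2%) and 3 higher (16.7%) in K148R, and 7 lower (38.9%) and 1 higher in K148Q. Without K148Q replicate 3 the K148Q counts were 10 lower and 2 higher. LRPPRC, which stabilises mitochondrial messages, averaged 408 ± 37.2 CPM in K148Q, 324 ± 28.3 CPM in K148R and 641 ± 3.2 CPM in parental cells, and fell in both (-0.65 and -0.98). MTRF1, of the release factor family, averaged 6.99 ± 2.19 CPM in K148R and 13.9 ± 0.438 CPM in parental cells, 2-fold lower (adjusted p = 6.14e-05). MTRF1L, a mitochondrial release factor, averaged 25.8 ± 2.12 CPM in K148R and 17.9 ± 0.943 CPM in parental cells, a rise of 0.53. RMND1 rose by 0.35 in K148R. TUFM, the elongation factor that delivers aminoacyl-tRNA, averaged 338 ± 23.4 CPM in K148Q and 335 ± 8.22 CPM in parental cells and was among the factors nearest to 0 there (0.01).

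Of 20 genes for charging mitochondrial tRNAs, 16 fell (80%) in K148R and 0 rose, and in K148Q 4 fell (20%) and 1 rose, or 4 and 3 without K148Q replicate 3. NARS2, the asparaginyl enzyme, averaged 22 ± 1.86 CPM in K148R and 43.9 ± 1.65 CPM in parental cells, 2-fold lower (adjusted p = 5.46e-08). MARS2 and HARS2, the methionyl and histidyl enzymes, did not pass in K148R (log2 fold changes -0.04 and -0.06). SARS2, the seryl enzyme, was the 1 higher in K148Q (0.45).

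Of 17 genes for mitochondrial DNA upkeep and transcription, 12 fell (70.6%) in K148R and 1 rose, and in K148Q 8 fell (47.1%) and 3 rose, or 9 and 4 without K148Q replicate 3. TFAM, which packages mitochondrial DNA and starts its transcription, averaged 98.1 ± 25.4 CPM in K148Q, 62.3 ± 4.79 CPM in K148R and 134 ± 6.71 CPM in parental cells (adjusted p = 0.0206 in K148Q and adjusted p = 3.08e-05 in K148R). Its K148Q libraries had 84.01, 82.84 and 127.4 CPM, so replicate 3 overlapped the parental ones (127, 134.7 and 140.4 CPM). POLG2, an accessory subunit of the mitochondrial DNA polymerase, averaged 10.7 ± 1.14 CPM in K148R and 23.5 ± 0.539 CPM in parental cells (-1.13). HSD17B10, a subunit of mitochondrial RNase P, rose in K148R (0.67). TOP1MT, the mitochondrial topoisomerase, rose in K148Q (0.59) and fell in K148R (-0.34). POLG, the catalytic polymerase subunit, rose in K148Q (0.46) and did not pass in K148R (0.02).

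Of 6 regulators of these genes 4 fell and 1 rose in K148R, and 1 fell and 1 rose in K148Q, or 2 and 2 without K148Q replicate 3. GABPB1, a subunit of the ETS factor GABP, averaged 29.8 ± 2.02 CPM in K148Q, 23.8 ± 0.369 CPM in K148R and 39.6 ± 0.546 CPM in parental cells and fell in both (-0.41 and -0.74). Its partner GABPA, which binds DNA, fell in K148R (-0.58 ± 0.15 (SE), adjusted p = 0.00409) and did not pass in K148Q (-0.30). The gene NRF1, for nuclear respiratory factor 1, fell in K148R (-0.31) and did not pass in K148Q (0.05). PPRC1, a coactivator, rose in K148Q (0.21) and fell in K148R (-0.23). ESRRA, the estrogen-related receptor alpha, rose in K148R (0.20). YY1 averaged 137 ± 12.6 CPM in K148Q, 135 ± 3.68 CPM in K148R and 140 ± 4.36 CPM in parental cells and passed in neither (adjusted p = 0.758 in K148Q and adjusted p = 0.52 in K148R). PPARGC1A had 5 counts over all libraries and was not tested.

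Cytosolic ribosomal protein genes are set beside the mitochondrial ones to show where the 2 ribosomes differed. In K148Q against parental cells, 17 of 77 mitochondrial members fell and 12 rose, with a median log2 fold change of -0.05, whereas of 82 cytosolic genes 80 fell and 0 rose, with a median of -0.46. Without K148Q replicate 3, 20 members fell and 23 rose, and 80 cytosolic genes fell and 0 rose. In K148R against parental cells, 46 members fell and 7 rose, with a median of -0.35, and 41 cytosolic genes fell and 14 rose, with a median of -0.14. In K148R against K148Q, 51 members were lower and 5 higher, with a median of -0.36. There 2 cytosolic genes were lower and 63 higher, with a median of 0.29, against 34.5% lower and 36.6% higher among all genes tested. Without K148Q replicate 3 that comparison had 56 members lower and 5 higher, and 6 cytosolic genes lower and 60 higher. The shares of all genes were then 36.4% lower and 38% higher. The difference between the lists was not tested.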

How the data were processed

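RNA of 9 libraries was sequenced by the submitters, 3 per genotype, grouped by the genotype in the labels. The authors deposited raw read counts per gene symbol. HISAT2 2.0.5, featureCounts 1.5.2 and FastQC 0.11.7 appear in the submitters' processing notes, with build GRCh38, and no source used here states which strand was counted. Of 26485 symbols, 8058 were at 0 in every library. Counts were filtered with filterByExpr, scaled with TMM and tested with the robust quasi-likelihood test of edgeR 4.0.16 in R 4.3.3, all 9 libraries in 1 fit, with Benjamini-Hochberg adjustment over 12845 genes. The common biological coefficient of variation was 0.0738. An exact permutation of 3 against 3 libraries cannot give a two-sided p below 0.1. Positions, transcript lengths (median of protein-coding transcripts) and GC content came from GENCODE v29, promoters from RefSeq. Members and gene lists were chosen with earlier results of these data known. Named were, per comparison, the 8 largest called rises and falls without overlap whose higher group reached 10 CPM, and the 4 smallest differences not called. Also named were the 5 highest and lowest levels, opposite calls, the stalk, the MRPS18 genes, MRPS30, MRPS36 and, from each list, the 2 largest changes each way and up to 2 not called. A gene that this rule names is not reported here. Other genes are named for their role or sequence, after their values were seen. Alternatives were DESeq2 1.42.0, limma-voom (limma 3.58.1), other scalings and filters, a replicate block, a GC and length correction, a minimum log2 fold change of 0.32, only the compared groups, and leaving out each library.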

Additional observations from a re-analysis of the deposited data

Results flagged for a closer look

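MRPL16, MRPL46 and MRPL12 were called in opposite directions in the 2 mutants, and the direct test of K148R against K148Q also passed. The share of all genes called in opposite directions was not counted. MRPL46 differed by -0.60 on the log2 scale between K148R and K148Q (adjusted p = 1.12e-05), with 0.25 in K148Q and -0.36 in K148R against parental cells. MRPL12 differed by -0.47 (adjusted p = 7.88e-05), with 0.24 in K148Q and -0.23 in K148R. MRPL16 differed by -0.40 (adjusted p = 0.000178), with 0.20 in K148Q and -0.20 in K148R. All 3 K148R libraries lay below all 3 K148Q libraries in each gene. The calls against parental cells were less firm: that of MRPL46 in K148Q was lost without parental replicate 3, K148Q replicate 1 or K148Q replicate 2 (adjusted p = 0.0887, 0.055 and 0.0873). That of MRPL16 in K148Q was lost without any 1 of 4 libraries (adjusted p = 0.0557 to 0.172), and in K148R without any 1 of 3 (adjusted p = 0.0629 to 0.0766). MRPL12 in K148Q lost its call without any 1 of 3 libraries (adjusted p = 0.056 to 0.0882).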

How the results depend on the processing

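The direction of the member medians in K148R held under every alternative run. Against parental cells the median of -0.35 became -0.37 with no filter on low counts, -0.40 with total counts only and -0.23 with the GC and length correction, which called 16 members higher. A minimum log2 fold change of 0.32 called 1 higher and 40 lower, against 33.1% and 32.9% of all genes. Leaving out 1 library at a time gave medians of -0.38 to -0.33, 44 to 51 lower and 5 to 8 higher. Of all genes, 34.8% to 40% were then lower and 35.4% to 40.1% higher. In K148R against K148Q, 8 members were higher with the GC and length correction and 0 with that minimum (44 lower). Among all genes 39.9% were higher with that correction, and 31.2% higher and 29.8% lower with that minimum. Leaving out 1 library gave medians of -0.42 to -0.35, 49 to 56 lower and 4 to 6 higher. Of all genes, 32.6% to 36.4% were then lower and 34.2% to 38% higher. In K148Q against parental cells the GC and length correction called 21 higher and 15 lower and turned the median to 0.036. That minimum called 4 higher and 6 lower, against 19.7% and 20.8% of all genes. Leaving out 1 library gave 6 to 23 higher and 10 to 20 lower, against 22.6% to 32.4% and 22% to 31.9% of all genes. Member medians were then -0.08 to -0.01. The cause was not tested. Replicate numbers name no shared batch, and same-numbered libraries did not deviate together in every pair (correlations of -0.03 to 0.24). The 0.24, between K148Q replicate 3 and K148R replicate 3, was the highest of all pairs of libraries from different genotypes. Among pairs of unlike number the highest was 0.154, between K148Q replicate 2 and K148R replicate 1. A replicate block called 19 lower and 14 higher in K148Q, against 28.5% and 28% of all genes. In K148R it called 48 and 7, against 38.2% and 38.3%. Between the mutants it called 51 and 6, against 35.6% and 37.7%. The GC and length correction alone reversed named members. In K148Q these were MRPS18C (0.32), MRPS28 (0.17), MRPL13 (0.070) and MRPL41 (-0.012). In K148R they were MRPL45 (0.15), MRPS18C (0.20), MRPS30 (0.31) and MRPS36 (0.21), and between mutants MRPL54 (-0.14) and MRPS36 (0.042). Over 20 alternatives, 34 of 46 falls and 1 of 7 rises in K148R kept their call, and in K148Q 6 of 17 and 4 of 12. Between the mutants 40 of 51 falls and 0 of 5 rises did. How many calls among all genes tested were kept in this way was not counted. The minimum log2 fold change of 0.32 is 1 of these alternatives and drops every smaller change by its rule. The kept rises in all 3 comparisons, and the kept falls in K148Q, are as many as that minimum alone left. These counts therefore largely restate the size of the changes. Depth limits MRPS24, at most 16 counts in a library.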
